A study of Drosophila melanogaster with 2 samples.

Results

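Groucho (gro) is a corepressor that does not bind DNA itself, and this account covers the regions of Groucho recovery whose highest point, the summit, lay in protein-coding sequence of Drosophila melanogaster. A region was taken when its summit in the dm6 build fell in an annotated coding exon, outside any 5′ UTR and over 500 bp from any annotated transcription start site (TSS). Of the 30000 regions that the authors listed from both replicates pooled, 1209 met this rule, or 4.03% (Wilson 95% interval 3.81 to 4.26%). The authors label this list as peaks and background, so it holds background regions as well as peaks. The choice used positions alone and no signal value.

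Groucho was followed through GFP joined to its C-terminus in a transgenic line, in chromatin of whole embryos, males and females pooled, collected between 0 and 24 h of age. Sonicated fragments of 200 to 800 bp were pulled down through the GFP, in 2 biological replicates of 1 group, numbered 1 and 3 in the labels. The labels do not say how the embryos of each replicate were collected. The study has no second condition, and neither a control library nor an immunoprecipitation from untagged embryos was analysed here. Recovery of transcribed chromatin without binding can therefore not be told apart from Groucho binding, and a site used in few cells cannot be told apart from a weak site used in many.

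Groucho is brought to DNA by repressors that carry short peptide motifs for it, among them Hairy and E(spl) proteins, Runt, Engrailed, Brinker, Dorsal and, in the absence of Wingless signal, the TCF factor Pangolin. It then recruits histone deacetylases and keeps nearby genes low. The sites of such repressors are mostly known from promoters, introns and intergenic enhancers; coding exons also hold some regulatory sites, whose bases must serve the protein code as well.

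The sequences of the coding regions in the authors' reproducible list are shown first, because they are the only ones of the 1209 that passed the authors' threshold by the irreproducible discovery rate (IDR). Each line gives 30 bases of the plus strand around the summit, 5′ to 3′, from the RefSeq genome of the dm6 build. Capitals mark a match to 1 of the 14 short words searched, and a line with no capitals held none. One member of the list lies on an arm whose sequence is not shown. The words found in these 30 bases were the GAGA factor word (GAGAG) for btsz and for the second bif summit, and the BEAF-32 core (CGATA), which also begins after it at bif. The Pde1c summit itself lay in a match to AGNNGGCGC on the minus strand.
Pde1c, chr2L:11816559-11816588: taggccgcaGCGCCATCTgccggctccgca
CG10357, chr3L:3616525-3616554: ccagggcaggaactcacatttctgatttta
klar, chr3L:506224-506253: tggccgcccagaggtcgtctttgccagacg
scrib, chr3R:26566997-26567026: cagtgcagcaaccaatcgttggtgtaaatt
InR, chr3R:21580223-21580252: ccgcactgatttcactgcttgcttgacagc
btsz, chr3R:14819934-14819963: tgttggcgttgtcgtcgCTCTCactgttgc
Cmpk, chr3R:26054597-26054626: atcttttccacctccccgaacacctcttcc
bif, first summit, chrX:11681729-11681758: ccggcgacaatcagtagcactagtcaaaag
bif, second summit, chrX:11681937-11681966: gaagtcagGAGAGggagatggtgCGATAta

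The word AGNNGGCGC was not among those named at the start: it was added after these sequences had been read, and it contains AGGTGGCGC, a form close to the published consensus of the insulator protein CTCF. The next lines show it on the strand that reads AGNNGGCGC, 5′ to 3′, with the word in capitals, wherever it occurred within 100 bp of 1 of these summits. Pde1c held it 30 bp before the summit and again 1 bp before it, CG10357 held it 59 bp before the summit, and klar held it 32 bp after the summit and at 89 and 70 bp before it. Before and after are in the direction of rising coordinates.
Pde1c, plus strand, chr2L:11816529-11816558: gctggccgccAGGTGGCGCaattgtcccct
Pde1c, minus strand, chr2L:11816558-11816587: gcggagccggcAGATGGCGCtgcggcctaa
CG10357, minus strand, chr3L:3616466-3616495: ataatagtacaAGGTGGCGCtagtaaaata
klar, plus strand, chr3L:506256-506285: cccagacccaAGGTGGCGCtgctgtgcaga
klar, minus strand, chr3L:506135-506164: cgctgtgagatAGAGGGCGCtgccacggtg
klar, minus strand, chr3L:506154-506183: ggacacttgcaAGGAGGCGCgctgtgagat

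Counted over windows of 201 bp on both strands, AGNNGGCGC was present at 4 of the 10 coding regions in the IDR list, at otp, Pde1c, CG10357 and klar. It was present at 39 of all 1209 coding regions, or 3.23% (Wilson interval 2.37 to 4.38%), against 2.36% of all 30000 regions and 3.32% of all IDR peaks. Coding sequence in general carried it about as often, at 3.79% of positions taken every 50 bp through the coding sequence that met the same rule. Because the word was read from these very sequences, the count of 4 in 10 is a description and has no test. When the window reached 50 bp either way, 3 of the 10 held it. AGNNGGCGC shares GGCGC with the Brinker word, so the same bases can count for both. A match to a word is not a site, and no CTCF binding was measured here.

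Coding sequence held few regions for its length, and almost none of them were strong. The sequence that met the rule amounted to 18.4 Mb, 13.7% of the 6 chromosome arms, against the 4.03% of regions it held. Density was 65.8 regions per Mb of this sequence, against 224 per Mb over the arms as a whole. In the IDR list the gap was wider, with 0.544 coding regions per Mb of coding sequence against 33.6 IDR peaks per Mb of arm. The arms as a whole include the sequence within 500 bp of a TSS, which the rule leaves out. That sequence held 10339 of the 30000 regions and 2814 of the 4492 IDR peaks, so part of these gaps comes from the rule. Of the 1209 coding regions 10 were in the dm6 optimal IDR list, or 0.827% (Wilson interval 0.450 to 1.52%), against 15% of all pooled regions. The share was 2.68% for regions in 3′ UTRs, 9.41% in introns and 27.2% within 500 bp of a TSS. These are shares of lists called on the same 2 libraries, and regions are not replicates of a condition, so no test was made.

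The signal, column 7 of the authors' lists, has no stated scale and is used here to rank regions within a list. Coding regions had a median pooled signal of 27.8, with quartiles of 24.3 and 34.2, against a median of 37.0 over all regions. They ran from 21.4, the lowest value of the whole list, to 299. Regions in 3′ UTRs came nearest with a median of 29.99, followed by intergenic regions with 33.5, those in 5′ UTRs with 33.9 and intronic ones with 34.1. When the pooled list was ordered by signal and divided into 10 bins of 3000, the count of coding regions rose from bin to bin through the ninth: 5, 11, 20, 61, 111, 160, 163, 219 and 230, with 229 in the last. The 5 lower bins together held 1001 coding regions, 82.8% of them. The 3′ UTR share was also lowest in the first bin, at 0.7%, and highest in the last, at 6.53%, with a dip to 5.5% in the eighth, while the share near a TSS was 64.6% in the first bin and 19.2% in the last.

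**Figure D1:**
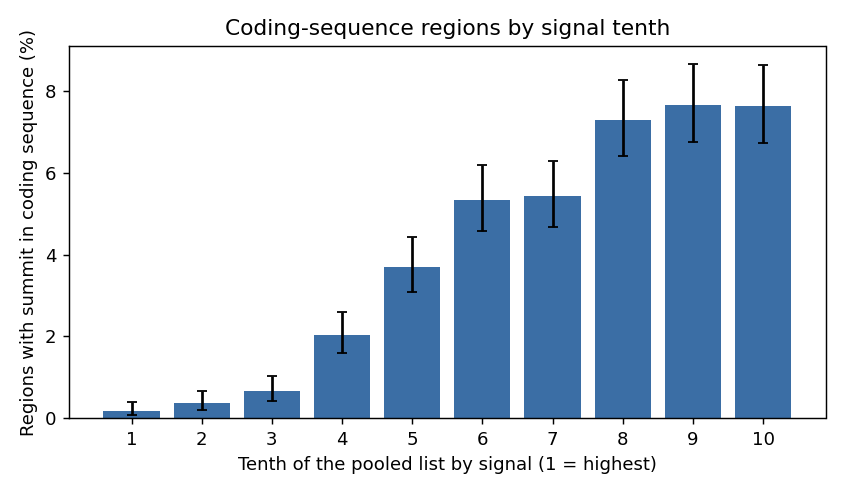
Percentage of regions whose summit lay in coding sequence (vertical axis) in each of 10 bins of 3000 pooled regions, ordered from the highest signal (1) to the lowest (10); error bars are Wilson 95% intervals. The share was 0.167% in the first bin and 7.63% in the last.

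The strongest of the coding regions lay in the last exon of otp, which encodes a homeodomain protein. It covered 188 bp on arm 2R, from 20884479 to 20884666, wholly coding, and was the only one of the 1209 with a width other than 410 bp. Its pooled signal was 299, rank 228 of the whole list, and it was 135 in replicate 1 and 167 in replicate 3, or 151 ± 23.1 (SD, n = 2). No other pooled region had its summit within 22 kb: the nearest was 22093 bp away, and the nearest TSS was 4658 bp away. The summit is coding in all 9 coding transcripts of the gene.

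Next came Pde1c, which encodes a calcium- and calmodulin-dependent phosphodiesterase. Its region (2L, 11816368 to 11816777) had a pooled signal of 154 and nearly equal replicate signals of 75.5 in replicate 1 and 75.8 in replicate 3. The summit lay 12 bp inside the last coding exon, 99.6% of the way through the coding sequence, and 35.6% of the interval was coding. The CG10357 region (3L, 3616334 to 3616743) was of the same kind, with its summit 7 bp from the edge of a coding exon of 70 bp, the last of the gene. Its signal was 59.3 in replicate 1 and 55.2 in replicate 3, with a pooled signal of 112. Both intervals thus ran for most of their length through sequence outside the coding exon that holds the summit.

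The gene bif, which encodes a cytoskeletal protein of photoreceptors and growth cones, held 2 of the 10. Both summits fell in exon 3, a coding stretch of 2537 bp, and they were 208 bp apart, so their intervals overlapped and the lower one can include fragments of the higher. The first (X, 11681538 to 11681947) had signals of 57.0 in replicate 1 and 52.2 in replicate 3 and a pooled signal of 107. The second (X, 11681746 to 11682155) had 40 and 39.3 in replicates 1 and 3 and a pooled signal of 82.9. Each replicate list held a separate region for each summit.

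The other 5 lay in scrib, InR, klar, btsz and Cmpk. In scrib, which encodes a scaffold protein of epithelial polarity, the region (3R, 26566806 to 26567215) had 54.6 in replicate 1 and 53.2 in replicate 3. Another pooled region had its summit 202 bp from it. In InR, the insulin receptor gene, the region (3R, 21580032 to 21580441) was wholly coding, in the first coding exon, and was 9954 bp from any TSS. Relative to its mean it had the widest spread of the 10, with 65.2 in replicate 1 and 34.1 in replicate 3, or 49.7 ± 22.0 (SD, n = 2). In klar, which encodes a protein that links nuclei and organelles to microtubule motors, the region (3L, 506033 to 506442) had 50.2 in replicate 1 and 44.2 in replicate 3. The klar summit is coding in 4 of the 9 coding transcripts of the gene.

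In btsz, which encodes a synaptotagmin-like protein, the region (3R, 14819743 to 14820152) had 47.1 in replicate 1 and 40.1 in replicate 3. It lay 1335 bp from the nearest edge of a coding exon of 7035 bp, deeper in coding sequence than any other of the 10, but that exon is coding in 2 of 9 coding transcripts and the summit is intronic in others. Cmpk, which encodes a nucleotide monophosphate kinase, has a single coding exon, with the summit at 95.6% of its length. Its region (3R, 26054406 to 26054815) had 37.7 in replicate 1 and 42.6 in replicate 3. Of the 10 coding regions in the IDR list, otp, Pde1c and Cmpk had the higher signal in replicate 3 and the other 7 in replicate 1.

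The next 5 coding regions by signal stood below the IDR threshold, the weakest IDR peak having a pooled signal of 80.6. They were in ATPsynbeta, the beta subunit gene of mitochondrial ATP synthase on chromosome 4 (75.4), in CG15531 (73.5), in RpL23A, a large-subunit ribosomal protein gene (71.0), in sima, the gene of the hypoxia-inducible factor alpha homolog (70.6), and in AANATL2, which encodes an acetyltransferase (70.1). Their replicate signals varied in evenness. Among the coding regions, the 10 in the IDR list were those of highest pooled signal, and none outside it exceeded 75.4. The evenness of these 5 was not compared with that of the IDR members. ATPsynbeta had 41.3 in replicate 1 and 29.0 in replicate 3, and AANATL2 had 38.7 and 24.8, whereas RpL23A had 26.8 in replicate 1 and 48.6 in replicate 3. sima had 29.6 and 36.7 and CG15531 had 39.1 and 39.9 in replicates 1 and 3. At the 500 bp limit of the rule, the coding summits nearest to a TSS that still counted were those of Cpr65Ay, PIG-X and Parg, at 501, 502 and 502 bp, with signals of 32.7, 38.3 and 31.1. The nearest ones left out were those of CG32109, indra and CG2006, all at 498 bp, with 31.9, 28.4 and 23.9.

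**Figure D2:**
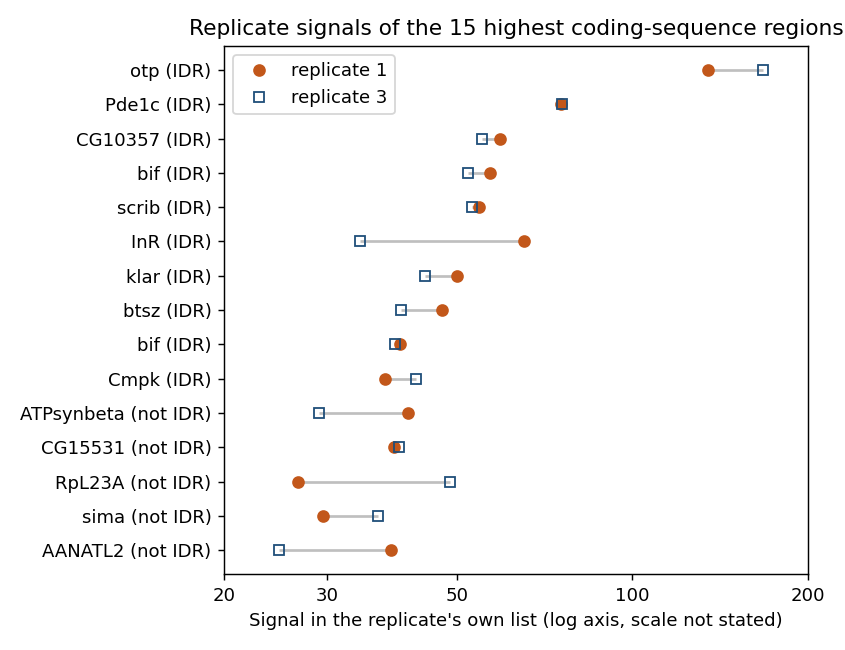
Signal in each replicate's own list (horizontal axis, log scale, scale of the signal not stated) for the 15 coding regions of highest pooled signal, ordered from the highest at the top; filled circles are replicate 1, open squares replicate 3, and a line joins both. The otp region stands apart at 135 and 167, the rest lie between 24.8 and 75.8, and InR and RpL23A show wide gaps in opposite directions.

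Fewer of the coding regions than of all regions were found in each replicate taken alone. A pooled region counted as found when it overlapped a region of the replicate's own list of 30000 by at least 1 bp. Of the 1209, 516 were found in both replicates, or 42.7% (Wilson interval 39.9 to 45.5%), against 70.8% of all regions. Another 313 were found in replicate 1 alone, 308 in replicate 3 alone and 72 in neither, 5.96% against 2.35% of all regions. Over all 30000 regions, 4070 were found in replicate 1 alone and 3970 in replicate 3 alone. The pooled list was called on both replicates together, so these shares do not test reproducibility independently. Low signal goes with low recovery throughout the list, so the comparison was repeated within the 10 signal bins. All 5, 11 and 20 coding regions of the 3 highest bins were found in both replicates, as were 58 of 61 in the fourth. In the sixth bin the shares were 57.5% of coding regions (Wilson interval 49.8 to 64.9%) and 71.5% of all others, and in the ninth they were 18.3% (13.8 to 23.8%) and 34.8%. The gap was narrower in the fifth bin, with 80.2% of coding regions (71.8 to 86.5%) and 84.7% of others. In the eighth it was 38.8% (32.6 to 45.4%) and 44.4%, so in both bins the others lay inside the interval. Weighted to the bins of the coding regions, the other regions had a share of 52.9%, against 42.7% for the coding regions.

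**Figure D3:**
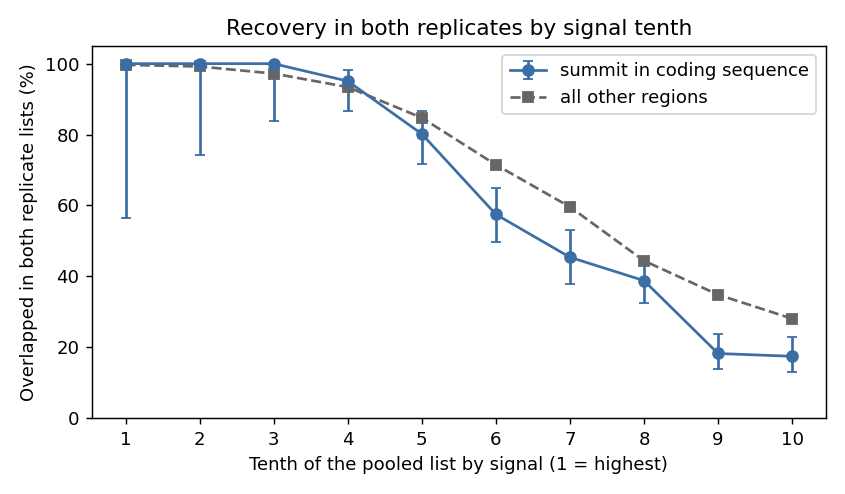
Percentage of regions overlapped by a region in both replicate lists (vertical axis) in each of 10 signal bins from highest (1) to lowest (10), for coding regions (circles, with Wilson 95% intervals) and all other regions (squares). Both lines start near 100%, and the coding regions lie lower from the fifth bin on, with 17.5% of coding regions and 28.1% of other regions in the last bin. In the fifth and eighth bins the other regions lie inside the intervals of the coding regions.

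Among the 516 found in both replicates, 238 (46.1%) had the higher signal in replicate 3, against 51.7% over all regions found in both. Spearman's rho between their signals in replicates 1 and 3 was 0.179, against 0.576 over the 21255 regions of all kinds found in both. Pearson's r of the log2 signals was 0.354, against 0.685. These correlations run across regions that share their libraries, and the coding regions span a narrower range of signal. Some points were not separate either: 68 coding regions shared a replicate 1 region with another of the 1209, and 72 shared a replicate 3 region.

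Within genes, the coding regions lay nearer to exon edges and nearer to TSSs than coding sequence in general. Coding sequence in general was represented by 367465 positions, every 50 bp of the sequence that met the rule. The median summit was 82 bp from the nearest edge of a coding exon, against 170 bp for these positions, and 403 summits (33.3%) were under 50 bp from an edge, against 20.6% of positions. Accordingly the median interval was 77.3% coding, 248 intervals (20.5%) were wholly coding, and 163 were coding over less than 50% of their length. The median distance to a TSS was 1169 bp, against 1891 bp, and 498 summits (41.2%) lay within 1 kb of a TSS, against 23.6% of positions. A region of 410 bp centred in a short exon includes intron or UTR on either side, and recovery of the exon and of what lies beside it cannot be told apart.

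Along the coding sequence, divided into 3 equal parts from 5′ to 3′, the first held 350 summits (29.0%), the middle 345 (28.5%) and the last 514 (42.5%). For coding positions in general these shares were 25.3%, 36.6% and 38.1%, so the middle part held fewer summits than its length and both ends held more. Last coding exons carried 31.6% of summits against 25.6% of positions and first coding exons 13.6% against 9.45%. Internal coding exons carried 47.2% against 56.8%, and genes with 1 coding exon 7.61% against 8.15%. Of the 1209 summits, 108 (8.93%) also lay in an intron of another coding transcript, against 12.3% of positions. Overlap with other pooled regions was less common than usual: 222 coding regions (18.4%) overlapped another pooled region, against 32.6% of all regions. One of higher signal was overlapped by 122 coding regions (10.1%), against 16.6% of all regions and 9.65% of those in 3′ UTRs. Of the 1209, 20 overlapped a region whose summit was within 500 bp of a TSS, against 171 of 12922 intronic regions and 14 of 1233 in 3′ UTRs. The rule keeps coding summits over 500 bp from a TSS, which itself limits this count.

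The base composition of the coding regions was closer to that of coding sequence than to that of all regions. Windows of 201 bp around their summits had a median GC content of 50.2%, against 52.7% for coding positions and 40.3% for all pooled regions. Low-GC windows were more frequent than in coding sequence at large, with 12.9% of summits and 6.43% of positions under 40% GC, and on the arms other than chromosome 4 these were 9.23% and 5.78%.

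Most DNA words of Groucho-recruiting repressors, and separately that of Zelda, were about as frequent at these summits as in coding sequence in general. The share in coding sequence lay inside the Wilson interval of the summits for each word but CACGTG and TAATTA. Of these, CACGTG was rarer at the summits and TAATTA was more frequent. The Runt word (TGTGGT) was within 100 bp of 142 summits (11.7%), against 12.6% of coding positions and 8.28% of all regions. The Brinker word (GGCGCC) was at 96 (7.94%), against 6.87% of coding positions and 3.43% of all regions. The Hairy and E(spl) word CACGCG was at 65 (5.38%), against 5.15% of coding positions and 5.48% of all regions, and the E-box CACGTG was at 24 (1.99%, 1.34 to 2.94%), against 2.99% and 2.71%. The Pangolin word CTTTGA was at 125 (10.3%), against 10.8% and 11.8%, and the Su(H) word TGGGAA was at 119 (9.84%), against 9.44% and 11.7%. The homeodomain word TAATTA, rich in A and T, was at 58 (4.80%, 3.73 to 6.15%), against 3.02% of coding positions and 13.1% of all regions. The Zelda word CAGGTA was at 79 (6.53%), against 6.53% of coding positions and 4.17% of all regions. Every word was searched on both strands. GC content also differs between these sets, and its part in the word counts was not tested.

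The longer words of promoter-associated factors were rare at the coding regions. The DRE core TATCGATA was at 0 of 1209 (Wilson interval 0 to 0.317%), against 0.174% of coding positions, 2.43% of all regions and 6.37% of IDR peaks. The M1BP word GGTCACAC was at 6 (0.496%), against 0.348%, 1.89% and 4.41% in the same order. The shorter BEAF-32 core CGATA, which is part of the DRE core, was at 286 (23.7%), against 22.8%, 27.6% and 36.5%. The GAGA factor word was at 238 (19.7%, 17.5 to 22.0%), against 23.1%, 25.3% and 28.3%. Repeats of the glutamine codon, as CAGCAGCAG, were at 48 coding regions (3.97%), against 4.98% of coding positions and 1.37% of all regions.

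Chromosome 4, the small and largely heterochromatic autosome, held coding regions at a density that set it apart. It had 82 of them in 0.253 Mb of coding sequence, or 324 per Mb, against 51.4 per Mb on the X, 58.7 on 3R, 59.3 on 2L, 67.4 on 2R and 74.0 on 3L. All pooled regions together were also denser there, at 353 per Mb of arm against 212 to 236 on the other arms, and coding regions made up 17.2% of the regions of chromosome 4, against 3.23 to 4.39% elsewhere. The 82 lay in 45 of the 80 protein-coding genes of the chromosome, 56.2%, against 6.55 to 8.80% of the genes of the other arms. None of the 82 was in the IDR list, but only 0.827% of all coding regions were, so this count does not set chromosome 4 apart. The IDR list held 18 of the 476 pooled regions of chromosome 4, against 15% of all pooled regions. The median signal of the 82, at 27.8, was that of the coding regions as a whole. Of the 82, 46.3% were found in both replicates. GC content moved with this result, with a median of 37.3% at the chromosome 4 summits and 39.3% at its coding positions, and its part in the result was not tested.

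**Figure D4:**
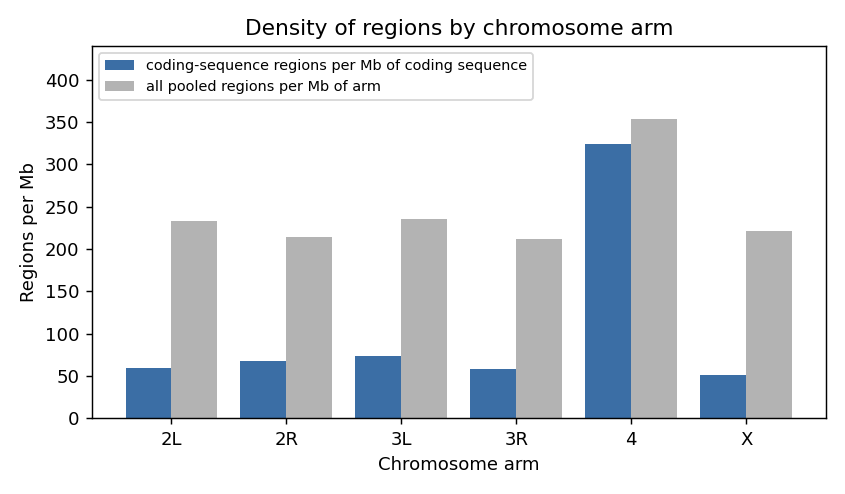
Density of regions (vertical axis, regions per Mb) on each chromosome arm: blue bars give coding regions per Mb of coding sequence that met the rule, grey bars all pooled regions per Mb of arm. Chromosome 4 stands at 324 and 353 per Mb, while on the other arms the blue bars lie between 51.4 and 74.0.

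The coding regions were spread thinly over many genes. They lay in 1041 genes, 7.47% of the 13945 protein-coding genes, each summit being assigned to 1 gene. Of these genes 908 held 1 coding region, 108 held 2, 16 held 3, 8 held 4 and 1 held 5. The 5 belonged to lola, a BTB and zinc-finger transcription factor gene whose alternative last exons encode different zinc fingers. Their pooled signals were 40.8, 35.7, 28.0, 26.5 and 23.8, and 4 of the 5 were in a last coding exon of the transcript used. The summits of 40.8 and 28.0 matched the same region in each replicate.

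Among the genes with 4, bif was first by summed signal, with further weak summits of 42.1 and 21.9 beside the 2 described above. Dyrk3, a kinase gene on chromosome 4, had 43.2, 40.1, 33.5 and 31.7, each found in both replicates. Myc, the growth-regulating transcription factor gene on the X, had 44.7, 41.01, 22.9 and 21.5. Cals, the calsyntenin gene, had 38.3, 33.9, 27.7 and 22.4. The other 4 with 4 coding regions, named here after their values were seen, were eIF4G1, gw, MED26 and pan, so that 6 of the 8 lay on chromosome 4.

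Genes with a coding region often had an IDR peak at their own promoter as well. Of the 1041, 480 (46.1%; 43.1 to 49.1% by Wilson) had an IDR peak with its summit at most 500 bp from 1 of their TSSs, against 24.5% of the 12257 genes with coding sequence that met the rule. Genes without a coding region stood at 22.5% (2520 of 11216). The genes with a coding region had more of that sequence, a median of 1318 bp against 988 bp, so they were compared within 4 groups of equal size by its length. From the shortest to the longest group the shares were 45.3%, 46.0%, 40.7% and 50.7% for genes with a coding region, and 16.4%, 21.0%, 22.4% and 30.6% for genes without one. The Wilson intervals of both kinds of gene did not overlap in any of the 4 groups, but they cover counting error alone and are no test. Genes are not replicates, and both measures come from the same 2 libraries. The number of TSSs per gene was not matched. Counted by region, the gene had such an IDR peak for 43.0% of the 498 coding regions within 1 kb of a TSS and 48.9% of the 711 farther away. Transcription was not measured here, and its part in this result was not tested.

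**Figure D5:**
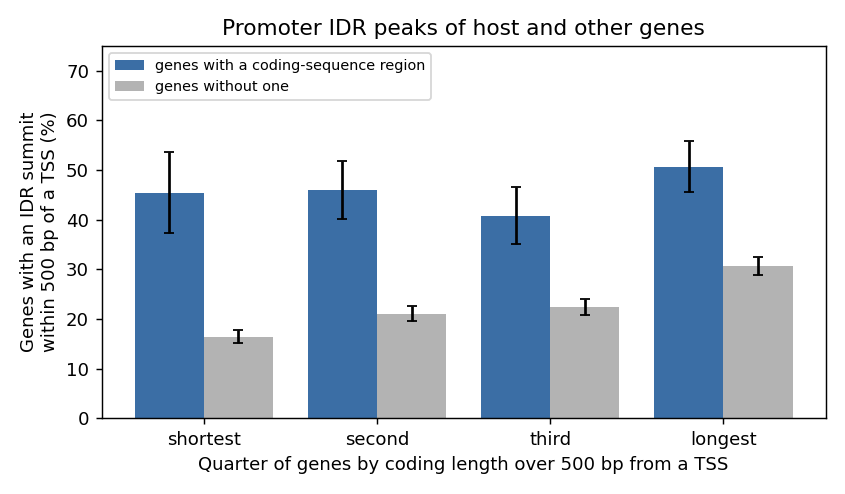
Percentage of genes with an IDR summit within 500 bp of a TSS (vertical axis), for genes with a coding region (blue bars) and without one (grey bars), in 4 groups of equal size by the length of coding sequence over 500 bp from a TSS; error bars are Wilson 95% intervals. The blue bars stand between 40.7% and 50.7% and the grey bars between 16.4% and 30.6%.

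The lists of developmental regulators are small, and their counts were near the share of all genes or too low to set beside it. None of 8 Hox genes and none of 15 Notch and E(spl) genes had a coding region. Of 21 genes for repressors that recruit Groucho, 2 did, or 9.52%, against 7.47% of all genes. These were pan, which encodes Pangolin, and bowl, a zinc-finger gene of the odd-skipped family. The 4 regions of pan, on chromosome 4, had pooled signals of 29.4, 28.5, 22.7 and 21.6, of which those of 28.5 and 22.7 were found in both replicates. The bowl region had a pooled signal of 23.7, with 15.9 in replicate 1 and 26.1 in replicate 3. Of 18 Polycomb and Trithorax group genes, 2 did, or 11.1%, against 7.47% of all genes: Scm (36.5) and pho (31.8) had 1 each; pho lies on chromosome 4.

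The lists of housekeeping genes were counted in the same way, against 7.47% of all genes and 8.49% of the genes with coding sequence that met the rule, and no difference between lists was tested. Of 92 genes named as cytosolic ribosomal proteins, 14 (15.2%) had a coding region, in only 16258 bp of coding sequence that met the rule. Only 58 of the 92 had any such sequence, so 14 of 58 is the count to set beside the 8.49%. RpL23A led with 71.0. RpL19 had 2 overlapping ones, of 49.1 and 28.9. RpL35 had 47.0, with 16.6 in replicate 1 and 27.8 in replicate 3, and RpS3 had 45.1 and was found in replicate 3 alone. Of 10 translation factor genes 4 (40%) had coding regions, led by eEF1alpha1 (37.8) and eIF4G1 (36.4), followed by eIF5 (25.6) and eEF2 (22.4), the last found in neither replicate. Of 12 actin and tubulin genes 3 (25%) did, Act5C with 46.3, alphaTub84B with 30.7 and alphaTub84D with 24.6. Genes in these families resemble each other in coding sequence, and how the authors placed reads that fit several copies is not given in the sources used here.

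Of 12 heat shock and chaperone genes 2 (16.7%) held coding regions: the constitutive chaperone gene Hsc70-4 had 3 coding regions and Hsp83 had 2, and the other 10 had none. The highest Hsc70-4 summit had a pooled signal of 54.7, with 21.2 in replicate 1 and 31.8 in replicate 3. The Hsc70-4 summit of 32.0 lay 199 bp from it and had the same replicate signals, and that of 39.7 was found in replicate 3 alone. The Hsp83 summits had 31.0 and 27.8 and matched the same region in each replicate. Of 9 glycolytic genes 3 (33.3%) did, with 1 region each in Gapdh2 (32.5), Pgk (27.3) and Pfk (26.8). Of 92 cuticle protein genes, 66 of which had coding sequence that met the rule, 1 (1.09%) did: Cpr65Ay, whose summit was 501 bp from a TSS. None of the 13 chorion, vitelline and yolk genes did, 10 of which had coding sequence that met the rule, and none of 111 replication-dependent histone genes, 27 of which had such sequence. None of the coding regions in any of the 12 lists was in the IDR list. Most lists are small, and their counts are given as a description.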

How the data were processed

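ChIP-seq of Groucho-GFP was measured in 2 biological replicates of whole embryos. Per the file headers and the deposited manifest, the authors called 30000 regions from each replicate and 30000 from both pooled, each with a control alignment, and derived an optimal IDR list of 4492 regions. The signal that the authors deposited in column 7 has no stated scale, and column 9 holds −log10 q values, of at most 3.74 at the coding regions. The median of these values was 0.505 at the coding regions, against 0.824 over all pooled regions. For the aligner, peak caller, settings and IDR threshold, the sources used here give nothing. Without read counts the depth is unknown. Dm3 lists were not used.

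Summits were placed in Ensembl release 115 gene models (transposable elements left out, 6 arms) and sequence was read from RefSeq Release 6, both dm6; 0 regions ran past an arm's end. Replicate signals are those of the overlapping region with the nearest summit. Python 3.11.15, pandas 2.3.3, numpy 2.4.6 and scipy 1.17.1 were used. The classification was tested on simulated data. No test was made, since regions are not replicates; Wilson intervals cover counting error alone. The members, gene lists and words were chosen with earlier results of these data known. Named genes are the IDR members, the highest 15, the 5 hosts with most regions, those at the 500 bp limit and up to 4 per list. Alternatives were other TSS limits, gene models, overlap rules, single-replicate lists, windows and leaving out chromosome 4.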

Additional observations from a re-analysis of the deposited data

How the results depend on the processing

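Of 69 alternative values for 8 results, 60 stayed within the 95% interval of the reported value or, for counts, within a factor of 1.5. With a TSS limit of 1000 bp the count of coding regions was 711 and of host genes 607, since fewer summits qualify, and the median GC content was 49.25%; with windows of 50 bp on each side that median was 51.5%. With a TSS limit of 250 bp for the coding regions, 41.5% of host genes had an IDR summit near a TSS. The IDR peaks above their own median signal took in 0.165% of coding regions. That setting keeps only the stronger IDR peaks, so this share, like the 15% of all pooled regions, could only fall. Recovery in both replicates was 32.3% with a reciprocal overlap of 50%, 23.6% with summits within 100 bp and 0.496% among the 4492 highest regions of each replicate, against 58.0%, 46.3% and 10.2% of all regions. In the list of 1 replicate alone, the count of coding regions ran from 1324 to 1343, their share among as many highest regions from 0.755 to 0.819% and the host genes from 1149 to 1150. Leaving out chromosome 4 was chosen after seeing the data and moved none of the 8 results past these bounds. The 10 coding regions in the IDR list are few, and the unknown depth, and a control that was not analysed here, limit what the weak regions show.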

Other observations

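Coding summits within 500 bp of a TSS were in the IDR list more often than the 1209, but the share did not fall steadily with distance. Of 645 summits that lay in coding sequence outside any 5′ UTR but within 500 bp of a TSS, 16 (2.48%) were in the IDR list. This was far below the 27.2% of all regions within 500 bp of a TSS and the 15% of all pooled regions. The median signal of the 645 was 31.8. Among the 1209, the share in the IDR list was 1 of 498 (0.201%) between 501 and 1000 bp from a TSS, 3 of 383 (0.783%) between 1001 and 2000 bp, 5 of 246 (2.03%) between 2001 and 5000 bp, and 1 of 82 (1.22%) beyond. The median signal over these distances was 28.7, 27.7, 27.6 and 27.1.

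The word AGNNGGCGC was found in several of the strongest coding regions: 3 of 5 in the highest of the 10 signal bins held it, against 103 of 2995 other regions there (3.44%), and 1 of 11 in the second. Below that, the coding regions with the word were 35 of those outside the IDR list (2.92%), led by Baldspot with a pooled signal of 50.6, par-1 with 43.2 and mahe with 41.9. These genes were named after their values were seen, and the word was chosen on the strongest sequences, so these counts carry no test.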
